A study of Mus musculus with 4 samples.

Results

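The genes described here encode the enzymes that cut, restrain and crosslink the extracellular matrix of the mouse heart: the matrix metalloproteinases (Mmp), the ADAMTS proteases, the ADAMTS-like proteins (Adamtsl), the tissue inhibitors of metalloproteinases (Timp) and the lysyl oxidases (Lox and Loxl1 to Loxl4). Members were taken by a rule on gene symbols, chosen with earlier results of these data known. The rule matched 56 annotated symbols, and 54 of them had a probe among the 21659 genes with a probe on the array. Adamtsl5 and Mmp27 had none. Where a gene had several probes, the one with the brightest mean signal was used.

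Hearts of male mice were collected 2 or 8 weeks after transverse aortic constriction (TAC), a narrowing of the aorta that raises the pressure against which the left ventricle pumps, or after a sham operation without the narrowing. The study treats the earlier time as the hypertrophic response and the later one as heart failure. By the labels the mice of the earlier arrays were 10 weeks old and those of the later arrays 16 weeks old, while the methods give C57BL/6J mice operated on at 12 weeks of age. For each of the 4 conditions RNA of 4 to 6 mice was pooled and put on 1 array, so the spread between mice could not be measured, no test was made, and every fold change is a ratio of 2 pools. No group carried a transgene, a deletion or a drug as far as the labels and methods state.

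Matrix metalloproteinases are secreted or membrane-bound zinc enzymes that are made as inactive precursors, and TIMPs block them by filling the active site. ADAMTS proteases carry thrombospondin repeats and cut procollagens, large proteoglycans such as versican, or von Willebrand factor, while ADAMTS-like proteins keep the repeats, lack the protease and bind fibrillin microfibrils. Lysyl oxidases oxidise lysines of collagen and elastin so that the fibres become crosslinked. In the heart these genes are known mainly from fibroblasts, vessels and infiltrating leukocytes, and from the fibrosis that accompanies pressure overload.

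A level below is the signal of a probe divided by the 75th percentile of its own array, so a level of 1 equals that percentile. Levels of different genes come from different probes and are not set against each other. The percentile lay between 206 and 248 signal units, and 54.7% to 58.5% of probes per array were well above background, a flag the scanner software sets for each spot. From 399 probes with 10 spots each, the log2 ratio between a pair of replicate spots had an SD of 0.115 at levels of 0.25 or more, 0.284 below that and 0.569 for probes not well above background. These values cover the error of a spot and not of a mouse, and 52 of the 54 members had 1 spot. The hypertrophy genes Nppa, Nppb, Myh7 and Acta1 were higher in TAC than in sham, by 2.05-fold (Nppb) to 8.53-fold (Acta1) at 2 weeks and 3.84-fold (Nppb) to 12.9-fold (Myh7) at 8 weeks, as the labels imply. The 6 cardiomyocyte markers were all measured on every array, so the labelled tissue had its defining markers. Their median log2 difference was -0.20 at 2 weeks and -0.32 at 8 weeks, against -0.01 at both times for all genes measured on every array. In whole hearts, fewer cells of a type and less RNA per cell cannot be told apart.

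Of the 54 members, 27 were well above background on all 4 arrays (50%, against 65.8% of all genes), 7 on some of them and 20 on none. Many of the Mmp genes without a signal lie together in the genome. An array of 10 Mmp genes lies on chromosome 9 within 427 kb (chr9:7272514-7699585, GENCODE annotation of GRCm38), in the order Mmp13, Mmp12, Mmp1b, Mmp3, Mmp1a, Mmp10, Mmp8, Mmp27, Mmp20 and Mmp7. It holds the collagenases, the stromelysins Mmp3 and Mmp10, the macrophage elastase Mmp12, the enamel protease Mmp20 and matrilysin (Mmp7). Of its 9 genes with a probe, Mmp3 was measured on all 4 arrays and the other 8 were well above background on none. Of the 13 Mmp genes elsewhere, 7 were measured on all 4 arrays.

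The bases in front of these genes also set the cluster apart from the other members. RefSeq promoter entries (GRCm38.p6) matched 35 members, and the 250 bases before each start were searched on both strands for 3 motifs, whose matches do not overlap each other in the sequences shown. The AP-1 motif was searched as TGANTCA, with N for any base. The TATA box was searched as TATAAA. The GC box was searched as GGGCGG. Where an entry listed 2 starts, as for Mmp7 and Mmp23, the first was used. AP-1 matched in 7 of the 35 members, or 20%, against 6.87% of all 27025 promoters, and all 7 lay in the cluster. At the position N the Mmp20 match had A, while the others had C or G. TATAAA matched in 28.6% of members against 13% of all promoters, and in the same 7 cluster genes, Mmp13, Mmp1b, Mmp3, Mmp1a, Mmp10, Mmp20 and Mmp7. GGGCGG matched in none of the 10 cluster promoters and in 20 of the 26 members outside the cluster, against 32.9% of all promoters. Such matches describe the letters only and do not show that a factor binds. The 100 bases before the start of these 7 genes are shown because they share both motifs although only Mmp3 gave a signal in these hearts. Capitals mark matches to any of the 3 motifs, and each sequence is written 5′ to 3′ on the strand of its gene.
Mmp13, chr9:7272414-7272513, plus strand: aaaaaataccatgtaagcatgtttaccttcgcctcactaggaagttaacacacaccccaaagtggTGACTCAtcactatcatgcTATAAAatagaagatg
Mmp1b, chr9:7388027-7388126, minus strand: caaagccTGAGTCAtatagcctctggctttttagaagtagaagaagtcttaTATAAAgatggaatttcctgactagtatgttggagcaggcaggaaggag
Mmp3, chr9:7445722-7445821, plus strand: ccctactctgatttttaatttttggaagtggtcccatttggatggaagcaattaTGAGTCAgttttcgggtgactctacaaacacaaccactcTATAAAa
Mmp1a, chr9:7464041-7464140, plus strand: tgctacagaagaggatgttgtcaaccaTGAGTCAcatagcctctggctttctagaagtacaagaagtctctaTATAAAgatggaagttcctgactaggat
Mmp10, chr9:7502242-7502341, plus strand: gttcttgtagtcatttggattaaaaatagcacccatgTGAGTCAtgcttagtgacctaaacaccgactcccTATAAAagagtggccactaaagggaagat
Mmp20, chr9:7628131-7628230, plus strand: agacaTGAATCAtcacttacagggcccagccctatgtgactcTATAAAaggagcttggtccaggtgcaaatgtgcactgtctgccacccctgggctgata
Mmp7, chr9:7691990-7692089, plus strand: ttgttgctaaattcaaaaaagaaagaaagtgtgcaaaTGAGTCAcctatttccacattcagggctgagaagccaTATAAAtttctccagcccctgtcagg

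The first base of the AP-1 match stood 35 bases before the start in Mmp13, 46 in Mmp3, 63 in Mmp10 and in Mmp7, 73 in Mmp1a, 93 in Mmp1b and 95 in Mmp20. Promoter entries were also found for 7 of the members that were more than 2-fold higher in TAC at 2 or 8 weeks. None of these 7 had an AP-1 match in the 250 bases searched, and neither had any of the 26 members outside the cluster. A GC box matched in 5 of the 7, shown here for comparison with the cluster, and not in Mmp21 and Mmp23. That is 71.4%, near the 76.9% of all members outside the cluster. Neither the AP-1 nor the GC box count sets the 7 apart from those members. TATAAA matched in 3 of the 7, Adamts1, Adamtsl2 and Mmp21, or 42.9%, against 13% of all promoters. These were its 3 matches among the 26 members outside the cluster. In Adamts1 and Adamtsl2 it stood 32 and 30 bases before the start. Loxl1, Loxl2, Loxl3, Adamts4 and Adamts8 had no promoter entry.
Timp1, chrX:20870066-20870165, plus strand: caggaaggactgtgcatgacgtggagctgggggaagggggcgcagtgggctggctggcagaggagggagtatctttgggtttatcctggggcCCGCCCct
Adamtsl2, chr2:27079279-27079378, plus strand: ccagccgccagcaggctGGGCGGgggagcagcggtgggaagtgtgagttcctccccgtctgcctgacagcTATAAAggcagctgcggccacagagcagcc
Adamts1, chr16:85803114-85803213, minus strand: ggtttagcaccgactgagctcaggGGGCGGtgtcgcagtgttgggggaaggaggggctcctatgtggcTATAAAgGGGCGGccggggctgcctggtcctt
Adamts2, chr11:50601985-50602084, plus strand: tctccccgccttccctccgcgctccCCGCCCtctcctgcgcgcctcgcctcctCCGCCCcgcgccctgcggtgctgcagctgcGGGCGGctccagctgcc
Mmp14, chr14:54431498-54431597, plus strand: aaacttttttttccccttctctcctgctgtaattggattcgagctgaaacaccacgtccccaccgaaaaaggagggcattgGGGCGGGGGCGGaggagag

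At 2 weeks, 6 of the 54 members had a TAC level more than 2-fold above that in sham with the TAC array well above background, Adamts4, Adamts8, Adamtsl2, Loxl2, Mmp14 and Timp1. The same rule called 1.73% of all genes. In the other direction it called 1 member, Adamtsl3, and 0.863% of all genes. Among the 27 members measured on all 4 arrays, 14 were at least 1.5-fold higher, against 4.09% of the 14242 genes measured on every array, and none was at least 1.5-fold lower, against 2.42%. The median log2 difference of these 27 members was 0.62 at 2 weeks, with values from -0.35 (Adamts7) to 1.86 (Timp1).

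At 8 weeks, 9 members passed this rule upward, Adamts1, Adamts2, Adamts4, Adamts8, Adamtsl2, Loxl2, Mmp21, Mmp23 and Timp1, against 2.36% of all genes. Mmp21 passed it only through the array where it was high, and its lower bound is 1.26-fold. Adamts7 was the 1 member more than 2-fold lower, against 1.47% of all genes. By the 1.5-fold rule 9 of the 27 measured members were higher (5.24% of measured genes) and 1 was lower (3.74%). Their median log2 difference was 0.26. At both times more than 2-fold higher were 5 members, Adamts4, Adamts8, Adamtsl2, Loxl2 and Timp1 (0.563% of all genes), and none was more than 2-fold lower at both times (0.171%). With normexp, another background correction, the 2-week log2 differences of Adamts4, Adamts8 and Loxl2 were 0.56, 0.74 and 0.95, so that of the 5 Adamtsl2 and Timp1 stayed above 2-fold at both times. At least 1.5-fold higher at both times were 8 of the 27, Adamts2, Adamts8, Adamtsl2, Loxl1, Loxl2, Loxl3, Mmp23 and Timp1, against 2.09% of measured genes, and none was at least 1.5-fold lower at both times (1.14%). Adamts8 is counted by its brightest probe, while its second probe gave log2 differences of -0.01 and 0.15. In 17 of the 27, both TAC levels lay above both sham levels (23.8% of measured genes), and in 3, Adamts7, Adamtsl4 and Mmp15, both lay below (25.7%).

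**Figure D1:**
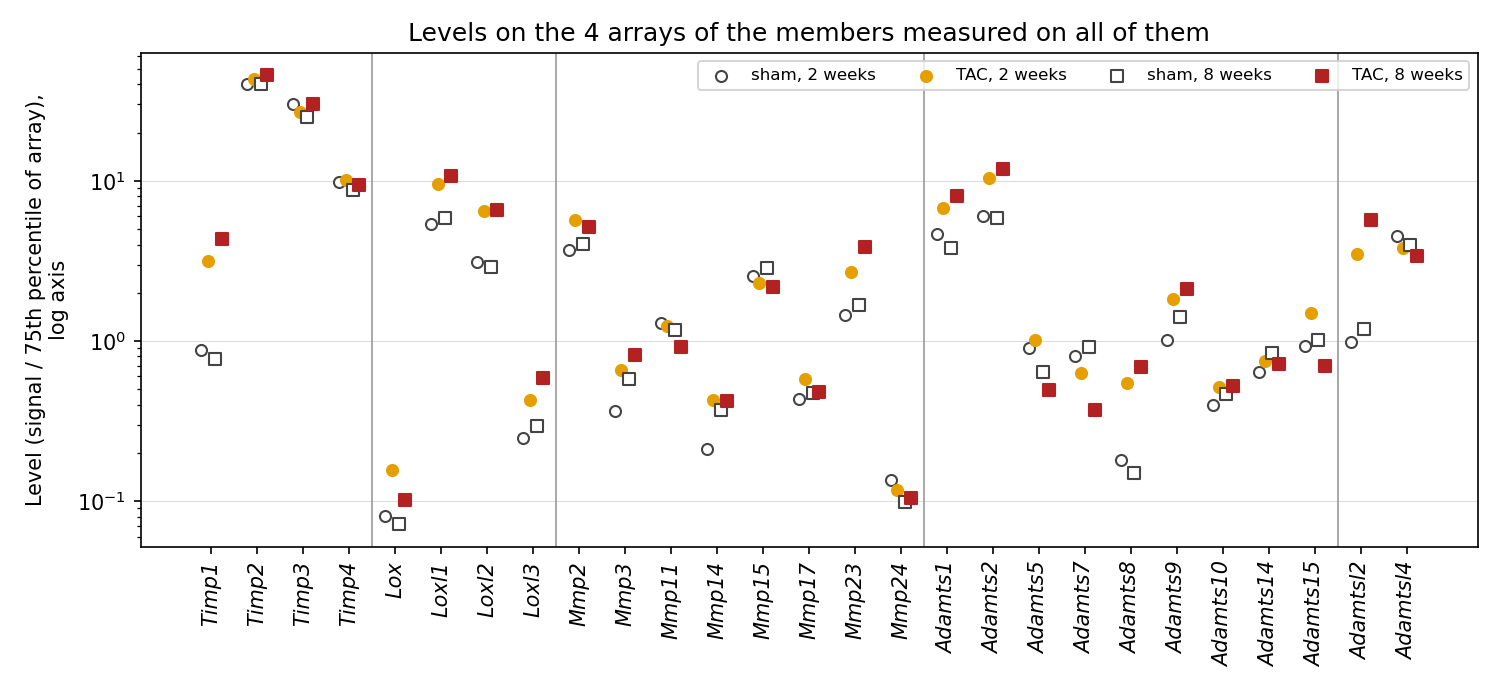
Level of each of the 27 members measured on all 4 arrays, as signal divided by the 75th percentile of the array, on a log axis. Circles are the 2-week and squares the 8-week arrays, open symbols are sham and filled symbols TAC, each a single array of pooled RNA with no error bar. Timp1, Adamtsl2 and the lysyl oxidases show filled symbols above open ones, Adamts7 the reverse, and positions of different genes are not comparable.

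The 4 TIMPs differed from each other in their response. Timp1 (chrX:20870166-20874735, GRCm38), the inhibitor known to be induced by injury and inflammation, had a level of 0.872 in sham and 3.16 in TAC at 2 weeks, then 0.774 in sham and 4.34 in TAC at 8 weeks. TAC exceeded sham 3.63-fold at 2 weeks and 5.61-fold at 8 weeks, the largest log2 differences among the measured members at both times (1.86 and 2.49), while the 2 sham arrays differed by -0.17. Timp2, which also helps MMP14 to activate MMP2, had sham and TAC levels of 40.1 and 43.3 at the earlier and 40.1 and 45.6 at the later time. Its log2 differences of 0.11 and 0.18 came with 0.14 and 0.31 from a second probe. Timp3, a matrix-bound inhibitor that also acts on ADAMTS proteases, had levels of 30.0 in sham and 27.0 in TAC at 2 weeks, then 25.0 in sham and 30.0 in TAC at 8 weeks. Sham and TAC thus changed places between the times, with log2 differences of -0.15 and 0.26. Timp4, known for its expression in the heart, had levels of 9.81 and 10.1 at 2 weeks and 8.74 and 9.39 at 8 weeks, which is a log2 difference of 0.04 and 0.10. By their brightest probes the 3 TIMPs other than Timp1 thus differed from sham by at most 1.20-fold at either time, and by the second Timp2 probe by 1.24-fold at 8 weeks. Timp1, Timp3 and Timp4 each lie within the span of a synapsin gene on the opposite strand (Syn1, Syn3 and Syn2).

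All 4 measured lysyl oxidases were at least 1.5-fold higher at 2 weeks, and Loxl1, Loxl2 and Loxl3 also at 8 weeks. The family median was 0.89 at 2 weeks and 0.93 at 8 weeks on the log2 scale. Loxl1 (chr9:58287738-58313186), which acts mainly on elastin, had levels of 5.40 in sham and 9.62 in TAC at 2 weeks, then 5.88 and 10.75 at 8 weeks. The difference was 1.78-fold and 1.83-fold, and its second probe gave log2 differences of 0.60 and 0.91 beside 0.83 and 0.87. Loxl2 (chr14:69609068-69695834), a collagen crosslinking enzyme, had sham and TAC levels of 3.11 and 6.50 at the earlier and 2.91 and 6.60 at the later time. Both TAC arrays were high and both sham arrays low, by 2.09-fold and 2.27-fold. Its other probes were also higher in TAC, one by log2 1.01 and 0.95 and one by 0.46 and 0.40. Loxl3 had levels of 0.248 and 0.428 at 2 weeks, then 0.293 and 0.584 at 8 weeks, 1.72-fold and 1.99-fold higher in TAC.

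Lox, the founding member of the family and the crosslinker of collagen and elastin, gave a dim signal and a less certain difference. Its levels were 0.0802 in sham and 0.155 in TAC at 2 weeks, and 0.0717 in sham and 0.101 in TAC at 8 weeks. The log2 difference was 0.95 at 2 weeks and 0.50 at 8 weeks, with a spot SD of 0.284 at these levels. A second Lox probe was well above background on both TAC arrays, at levels of 0.0980 and 0.105, and on neither sham array, at 0.0396 and 0.0215. With normexp the 8-week difference of Lox was -0.01. Loxl4 was well above background on no array, with levels of 0.0195 to 0.0462.

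**Figure D2:**
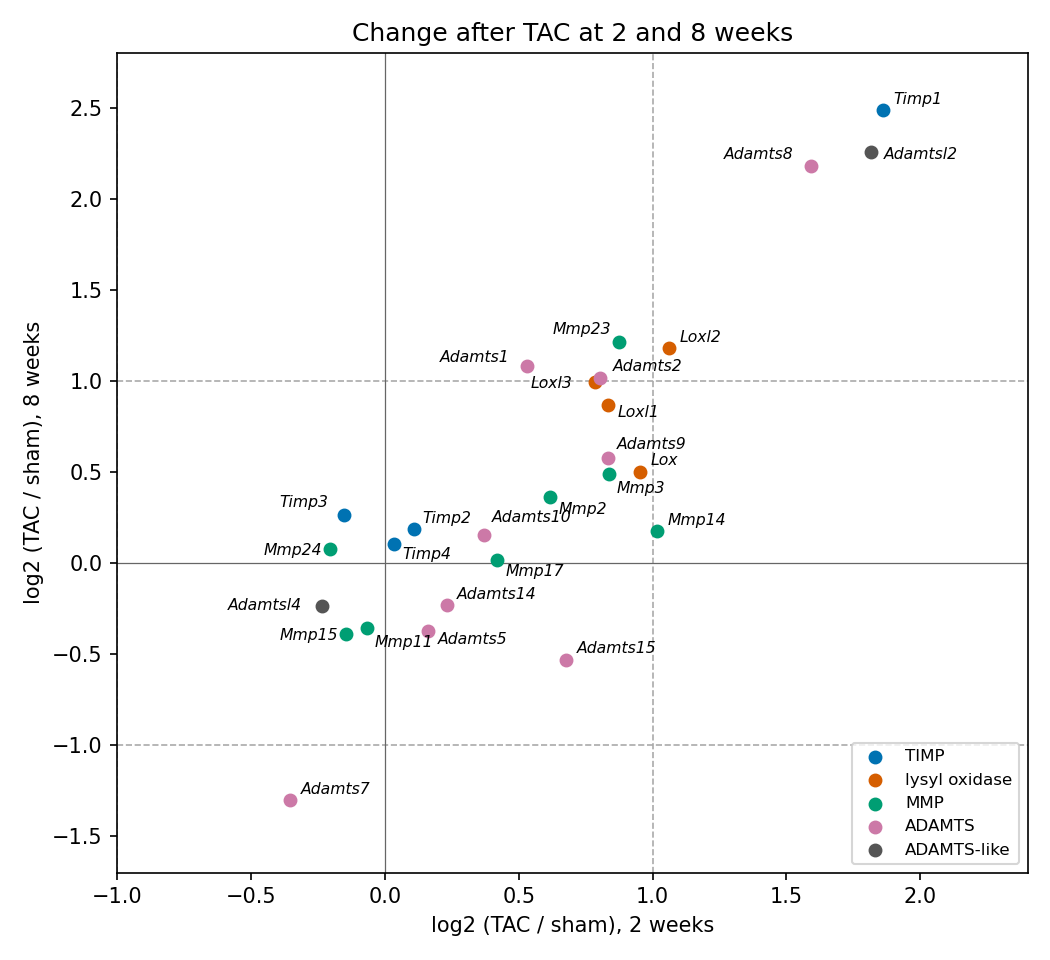
Log2 ratio of TAC to sham at 2 weeks (horizontal) and at 8 weeks (vertical) for the 27 members measured on all 4 arrays, coloured by family. Dashed lines mark 2-fold. Timp1, Adamtsl2 and Adamts8 lie farthest up at both times, the lysyl oxidases lie between 0.50 and 1.18, and Adamts15 lies at 0.68 and -0.53. Adamts8 is placed by its brightest probe, while its second probe gave -0.01 and 0.15.

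Of the 22 Mmp genes with a probe, 8 were measured on all 4 arrays, and the median log2 difference was 0.52 at 2 weeks and 0.13 at 8 weeks. Mmp2 (chr8:92827291-92853420), a gelatinase secreted by fibroblasts, had levels of 3.72 in sham and 5.71 in TAC at 2 weeks, then 4.03 and 5.18 at 8 weeks. Both TAC arrays were above both sham arrays, by 1.53-fold and 1.29-fold. Mmp14 (chr14:54431612-54445364), the membrane-anchored protease that activates the MMP2 precursor, had levels of 0.212 and 0.428 at 2 weeks and 0.373 and 0.421 at 8 weeks. The 2-week sham array was the low one of the 4, so the difference of 2.02-fold at 2 weeks was 1.13-fold at 8 weeks, beside a log2 difference of 0.81 between the sham arrays. Mmp3, the stromelysin of the chromosome 9 cluster, had levels of 0.367 and 0.655 at 2 weeks and 0.581 and 0.816 at 8 weeks. The 2-week sham array was again the lowest of the 4, and both TAC arrays were the highest, 1.78-fold and 1.40-fold higher in TAC, with a log2 difference of 0.66 between the sham arrays. Mmp14 and Mmp3 were the 2 of the 27 measured members that were at least 1.5-fold higher in sham at 8 weeks than at 2 weeks (1.57% of measured genes), and none was at least 1.5-fold lower (1.18%).

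Mmp23 (chr4:155650655-155653384), a membrane-anchored MMP that lacks the usual haemopexin domain, was the Mmp gene with the largest difference at 8 weeks among those measured. Its levels were 1.46 in sham and 2.68 in TAC at 2 weeks, and 1.67 in sham and 3.88 in TAC at 8 weeks, a difference of 1.84-fold and 2.32-fold. The other 4 measured Mmp genes, Mmp11, Mmp15, Mmp17 and Mmp24, ranged in log2 difference from -0.20 to 0.42 at 2 weeks and from -0.39 to 0.08 at 8 weeks. Mmp15, a membrane-type MMP, was the lowest at 8 weeks, and its TAC levels of 2.29 and 2.19 lay under its sham levels of 2.54 and 2.86. Mmp21 had a signal well above background at 8 weeks in TAC alone, with a level of 0.0678 against 0.0137 in sham, which by the lowest signal well above background is at least 1.26-fold higher. A second Mmp21 probe was well above background on no array.

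Mmp8, Mmp9, Mmp12 and Mmp13 gave no signal above background. Mmp8 and Mmp9, which neutrophils store in granules, had levels of 0.0124 to 0.0162 and of 0.0152 to 0.0215. Mmp12, the elastase of macrophages, lay between 0.0267 and 0.0405, and the collagenase Mmp13 between 0.0191 and 0.0341, all below the lowest level that counted as well above background on an array (0.0469 to 0.0600). At these signals no difference was detectable, which does not show that the genes are absent. In the same arrays the neutrophil markers S100a8 and S100a9 were 2.16-fold and 2.31-fold higher at 2 weeks and 4.51-fold and 3.99-fold higher at 8 weeks. Of the 6 neutrophil markers Ngp and Ltf were well above background on no array, Camp was at 0.725-fold and 0.748-fold of sham, Retnlg was well above background on 2 arrays, with levels of 0.0162 in sham and 0.0622 in TAC at 2 weeks and 0.0310 and 0.125 at 8 weeks, and the summed level was 1.51 in sham and 2.98 in TAC at 2 weeks and 1.19 and 3.84 at 8 weeks. The macrophage markers had a median log2 difference of 0.44 and 0.36. The part of these cells in the differences of the members was not tested.

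Of the 19 ADAMTS genes with a probe, 9 were measured on all 4 arrays, with a median log2 difference of 0.53 at 2 weeks and 0.16 at 8 weeks. The proteases that cut versican and aggrecan differed among themselves. Adamts1 (chr16:85793827-85803113) had levels of 4.69 in sham and 6.77 in TAC at 2 weeks, then 3.81 and 8.06 at 8 weeks. The TAC arrays were the high ones, by 1.45-fold at 2 weeks and 2.11-fold at 8 weeks. Adamts5, the aggrecanase whose gene lies next to Adamts1 with 53060 bases between them, had levels of 0.900 and 1.01 at 2 weeks, then 0.639 and 0.493 at 8 weeks. Its log2 difference was 0.16 at 2 weeks and -0.38 at 8 weeks, and the TAC array at 8 weeks was 2.04-fold lower than the one at 2 weeks. A second Adamts5 probe gave 0.59 and -0.25. Adamts4, the other main aggrecanase, had a level of 0.0514 in the 2-week sham array, not well above background, against 0.219 in TAC, which is at least 3.65-fold higher by the main background correction. With normexp its log2 difference was 0.56 at 2 weeks and 0.42 at 8 weeks. At 8 weeks its levels were 0.0909 and 0.239, a 2.63-fold difference, so that both TAC arrays lay above both sham arrays. Adamts9, a versican-cutting protease, had levels of 1.02 and 1.82 at 2 weeks and 1.41 and 2.11 at 8 weeks, 1.78-fold and 1.49-fold higher, and its second probe gave log2 differences of 0.77 and 0.57.

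Adamts15 and Adamts8 are neighbours on chromosome 9 with 20110 bases between them, and their values went apart at 8 weeks. Adamts15 had levels of 0.934 in sham and 1.49 in TAC at 2 weeks, then 1.01 in sham and 0.697 in TAC at 8 weeks. It was 1.60-fold higher at 2 weeks and 1.45-fold lower at 8 weeks, with the 2-week TAC array the highest and the 8-week TAC array the lowest of the 4. Adamts8 had levels of 0.180 and 0.544 at 2 weeks, then 0.150 and 0.683 at 8 weeks by its brightest probe, 3.02-fold and 4.54-fold higher in TAC. Its second probe, of about the same signal, gave levels of 0.190 and 0.189 at 2 weeks and 0.166 and 0.185 at 8 weeks, a log2 difference of -0.01 and 0.15. The call for Adamts8 therefore rests on 1 of 2 probes for the same transcript accession.

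**Figure D3:**
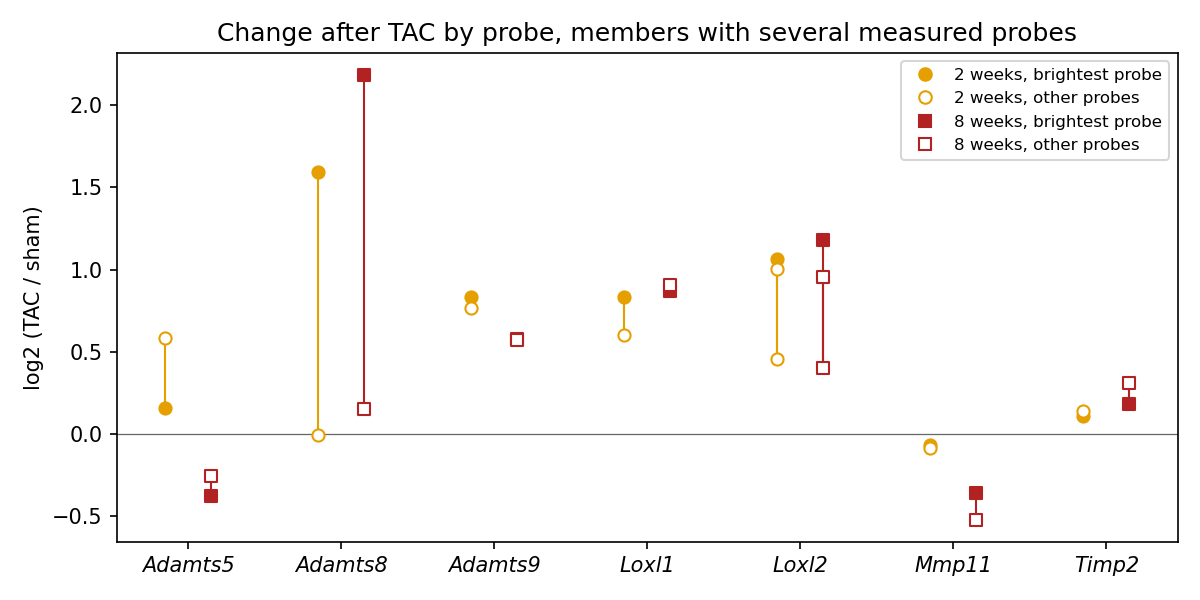
Log2 ratio of TAC to sham for each probe of the 7 members with several probes measured on all 4 arrays, at 2 weeks (circles) and 8 weeks (squares), with the brightest probe filled and the others open. The probes of Adamts8 are 1.60 apart at 2 weeks and 2.03 at 8 weeks, those of Loxl2 are 0.60 and 0.78 apart, while for the other 5 genes they lie within 0.5 of each other.

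Adamts2 (chr11:50602084-50807573), which removes the N-terminal propeptide from procollagens, had levels of 6.002 in sham and 10.5 in TAC at 2 weeks, then 5.82 and 11.8 at 8 weeks. Both TAC arrays were high, by 1.75-fold and 2.02-fold. A second, dim probe was well above background on both TAC arrays, at 0.0917 and 0.121, and on neither sham array, at 0.0566 and 0.0532. It thus passed only through the arrays where it was high. The related procollagen protease Adamts14 had sham and TAC levels of 0.636 and 0.747 at the earlier and 0.837 and 0.714 at the later time, a log2 difference of 0.23 and then -0.23. Its second, dim probe, well above background on 1 array, gave -0.18 and -0.23. The third gene of that group, Adamts3, was well above background on no array. Adamts7 (chr9:90163069-90208071), known to cut COMP, was the measured member with the lowest values after TAC at both times. Its levels were 0.802 in sham and 0.628 in TAC at 2 weeks, and 0.919 in sham and 0.372 in TAC at 8 weeks, 1.28-fold and 2.47-fold lower. On the same arrays the level of Comp, its substrate, exceeded sham 2.00-fold and 3.78-fold, beside a level 1.90-fold higher in the later than in the earlier sham array. Adamts10, a fibrillin-binding member, differed by log2 0.37 and 0.16. Adamts3, Adamts6, Adamts13, Adamts16, Adamts19 and Adamts20 were well above background on no array, and Adamts12, Adamts17 and Adamts18 on 1 each, with a highest level of 0.104 (Adamts17, TAC at 2 weeks).

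An ADAMTS-like gene had the second largest log2 differences among the measured members. Adamtsl2 (chr2:27079379-27108981), a microfibril-associated glycoprotein linked to the control of TGF-beta availability, had levels of 0.989 in sham and 3.48 in TAC at 2 weeks, then 1.20 and 5.71 at 8 weeks. The difference was 3.52-fold at 2 weeks and 4.77-fold at 8 weeks, with a log2 difference of 0.27 between the sham arrays. It was the 1 measured member at least 1.5-fold higher in TAC at 8 weeks than in TAC at 2 weeks (2.56% of measured genes), by 0.71 on the log2 scale. In the other direction were 4, Adamts5, Adamts7, Adamts15 and Lox (2.68%). By the 2-fold rule over all 54 members, Adamtsl1 and Mmp21 were called higher in TAC at the later time (1.2% of all genes), and Adamts5, Adamts12, Adamts15 and Adamts17 lower (1.23%). In 4 of these calls the dimmer array was not well above background, and the lower bounds were 2.08-fold for Adamtsl1, 1.40-fold for Mmp21, 1.49-fold for Adamts12 and 2.22-fold for Adamts17. Adamtsl4, another fibrillin-binding protein, differed by -0.23 at both times, from sham levels of 4.51 and 3.97 to TAC levels of 3.83 and 3.38. Adamtsl3 was well above background on the 2-week sham array alone, with a level of 0.225 against 0.0178 to 0.0345 on the other 3. Its call as lower in TAC at 2 weeks, at least 4.64-fold, thus came from an array that also stood at least 4.16-fold above the 8-week sham array. It was the 1 member more than 2-fold lower in the later sham array (0.725% of all genes), and none was more than 2-fold higher there (1.17%). Adamtsl1 was well above background on every array but TAC at 2 weeks, with levels of 0.0470 to 0.101.

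The genes around this system were counted in 4 lists, beside the 4.09% at 2 weeks and 5.24% at 8 weeks of all measured genes that were at least 1.5-fold higher, and the 2.42% and 3.74% that were lower. A count near these shares is no result about a list. Of the 19 matrix substrates, which include collagens, elastin, fibrillin and the proteoglycans that ADAMTS enzymes cut, 18 were measured, and their median log2 difference was 0.92 at 2 weeks and 0.66 at 8 weeks. At least 1.5-fold higher were 14 at 2 weeks and 12 at 8 weeks, and lower were 0 and 1 (Thbs2). The 4 with the largest smaller difference of both times were Thbs1, a thrombospondin (3.95-fold and 4.04-fold), Col5a2, a fibril-forming collagen chain (2.58-fold and 3.41-fold), Comp (2.00-fold and 3.78-fold) and Fbn1, fibrillin itself (1.97-fold and 2.17-fold). Thbs1 was also 2.20-fold higher in the later than in the earlier sham array. The substrate list and the lysyl oxidases thus had higher medians at both times than the other 3 lists, the TIMPs, the Mmp genes and the ADAMTS genes. The 2 measured ADAMTS-like genes lay on opposite sides of sham, and their median stands for neither.

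Of the 20 genes of procollagen processing and crosslinking other than lysyl oxidases, 18 were measured, with a median of 0.14 at 2 weeks and 0.24 at 8 weeks. At least 1.5-fold higher were 1 and 4 of the 18, and none was lower, and the first of these counts is near the share of all measured genes. Pcolce, which enhances the removal of the C-propeptide, was 1.503-fold and 1.70-fold higher, P3h3, a collagen prolyl hydroxylase, 1.33-fold and 1.57-fold, Pcolce2 1.25-fold and 1.55-fold, and Bmp1, the C-proteinase, 1.24-fold and 1.28-fold. Of 18 other matrix-degrading proteases 16 were measured, with a median of 0.21 and 0.28. Higher by at least 1.5-fold were 4 at 2 weeks and 2 at 8 weeks, and lower were 0 and 1. The cathepsins Ctsk and Ctss were 1.66-fold and 1.56-fold higher at 2 weeks and 1.99-fold and 1.75-fold higher at 8 weeks, Adam8 1.30-fold and 1.34-fold higher, and the serine protease Htra1 was at 0.708-fold and 0.645-fold of sham.

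Of 15 genes of the plasminogen system and of MMP activation 11 were measured, with a median of 0.21 at 2 weeks and 0.02 at 8 weeks. At least 1.5-fold higher were 3 and 0 of them, and none was at least 1.5-fold lower. Pcsk5, a proprotein convertase, was 2.36-fold and 1.33-fold higher, the plasminogen activator Plat 1.51-fold and 1.35-fold, and Plaur, the urokinase receptor, 1.18-fold and 1.38-fold. Pcsk5 was lowest in the 2-week sham array, and the 8-week sham array stood 1.61-fold above it. Bsg, an inducer of MMP expression, was at 0.784-fold and 0.895-fold of sham. Reck, a membrane-bound MMP inhibitor, was at 1.02-fold and 0.982-fold of sham.

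**Figure D4:**
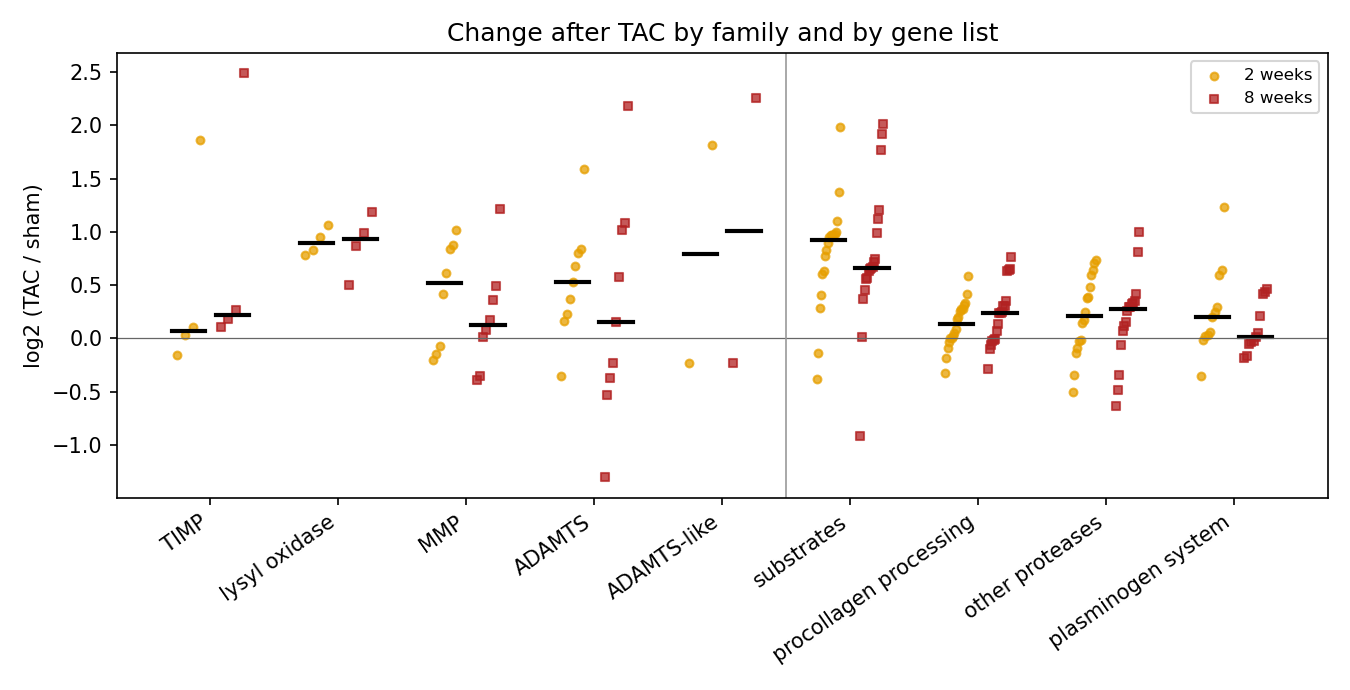
Log2 ratio of TAC to sham at 2 weeks (circles) and 8 weeks (squares) of the genes measured on all 4 arrays, by family on the left and by list on the right, each point a gene and each bar a median. The lysyl oxidases lie together around medians of 0.89 and 0.93, while 1 TIMP stands apart from the other 3.

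Markers of other cells moved beside these values. The 6 fibroblast markers had a summed level of 167 in sham and 205 in TAC at 2 weeks, then 191 and 251 at 8 weeks, with a median log2 difference of 0.25 and 0.34. Most of that sum was Dcn, at 1.13-fold and 1.22-fold of sham. Col1a1 was 1.96-fold and 2.30-fold higher, Lum 1.86-fold and 1.92-fold, and Pdgfra 1.24-fold and 1.32-fold. Tcf21 and Dpt, which mark resting fibroblasts, were at 1.05-fold and 0.996-fold of sham at 2 weeks and at 0.682-fold and 0.847-fold at 8 weeks. Of the 4 genes of activated fibroblasts, Postn was 4.90-fold and 7.59-fold higher and Comp 2.00-fold and 3.78-fold. Acta2 was at 0.990-fold and 0.755-fold of sham, and Cthrc1 was well above background on no array. Endothelial markers had medians of 0.25 and 0.00, smooth muscle markers of 0.18 and 0.22, mast cell markers of 0.29 and -0.03 and lymphocyte markers of 0.05 and -0.16. The smooth muscle markers went both ways, with a summed level of 80.8 in sham and 73.7 in TAC at 2 weeks, then 89.1 and 70.1. Smtn made up most of it, at 0.801-fold and 0.669-fold of sham, while Cnn1, Tagln and Myh11 were higher at both times. The atrial markers Myl7, Sln and Myl4 had a summed level of 3.21 and 3.23 at 2 weeks, then 4.14 and 2.76 at 8 weeks, in sham and TAC, most of it Myl4. At 8 weeks the level of Myl7 was 0.170 in sham and 0.0303 in TAC and that of Sln 0.120 and 0.0354. Both TAC levels lay under the lowest level well above background on that array, 0.0469, so the size of these differences is not known. Myl4, measured on all 4 arrays, was at 0.699-fold of sham at 8 weeks. The pools at 8 weeks thus differed in atrial genes. What share of the members' differences goes with these cells or with the tissue sampled was not tested.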

How the data were processed

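RNA of 4 pools of mouse hearts was measured on SurePrint G3 Mouse GE 8x60K one-color arrays, 1 array for each of sham and TAC at 2 and 8 weeks, all with a different pool. The values the authors deposited are scanner output with a processed signal per spot, an intensity after background subtraction and detrending that was left unscaled across arrays. The file headers name Feature Extraction 10.7.3.1 and the submitters' processing notes 9.1. The study analysed the arrays in GeneSpring GX11, with a normalization not given in the sources used here. The deposited table of the series holds an intensity on a linear scale and was used as an alternative.

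From these files log2 of the signal minus the array's 75th percentile over the 55681 non-control probes was taken. Outlier spots were left out (5 among the 76 member probes) and spots of a probe averaged. Probes were named by accession (29359 probes) through RefSeq and the annotation of GRCm38, and positions are those of GRCm38. A gene counted as higher or lower above 2-fold with the brighter array well above background. Where the dimmer array was not, the fold is a bound against the lowest signal well above background there, or the probe's own if higher. With 1 array per condition no test was made. The members and gene lists were chosen with earlier results of these data known. Given on every array were all Timp and lysyl oxidase genes, set Mmp and Adamts genes, and other measured members at least 1.5-fold different at either time. Adamtsl3, Adamtsl4, Adamts14, Mmp15 and Mmp21 were added after their values were seen. Of each list the 4 measured genes with the largest smaller difference of both times were named, and Reck and Thbs2 were added after their values were seen. One gene of the plasminogen list is not reported here and was left out of that list's counts and median.

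Alternatives were other scalings, normexp background correction (offset 50), other probes per gene, other filters and other thresholds. Python 3.11.15, pandas 2.3.3, numpy 2.4.6, matplotlib 3.10.9, R 4.3.3 and limma 3.58.1 were used.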

Additional observations from a re-analysis of the deposited data

Results flagged for a closer look

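Adamts15 and Adamts14 lay above sham at 2 weeks and below sham at 8 weeks, each by more than 2 SDs of the spot error, and were singled out for that reversal. The log2 difference of Adamts15 was 0.68 at 2 weeks and -0.53 at 8 weeks. That of Adamts14 was 0.23 and -0.23, which exceeds 2 SDs of 0.115 only barely at either time. A second, dim Adamts14 probe, well above background on 1 array, lay below sham at both times, by -0.18 and -0.23. With 1 array per condition the difference between the times was not tested.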

How the results depend on the processing

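No paired analysis was possible because the groups have 1 array each and share fewer than 2 replicate numbers. With normexp background correction the members more than 2-fold higher numbered 2 at 2 weeks in place of 6, and 6 at 8 weeks in place of 9. Those lower numbered 0 in place of 1 at each time. At a 1.5-fold threshold 17 were higher and 2 lower at 2 weeks, and 2 lower at 8 weeks. At a 3-fold threshold 4 were higher and 0 lower at 8 weeks. Requiring both arrays above background left 0 lower at 2 weeks, and without a filter on dim probes 3 were lower at 8 weeks. The median log2 difference was 0.42 at 2 weeks with normexp, 0.43 at 8 weeks without normalization, which itself moved the median of all genes to 0.16, and 0.17 and 0.091 at the 2 times without the filter on dim probes. Adamts8 at 2 weeks was -0.0066 by its second probe. Of 52 single values 25 moved by more than the spot error with normexp, 18 without normalization, 7 with the mean of all probes, 2 with quantile normalization and 1 with outlier spots kept, and none with the median, the percentile over spots or over probes above background, or the deposited series table. Of 20 values with a second probe, 12 moved and 1 reversed. The cause of these shifts was not tested. As to signal over background, 20 members were above it on no array, and 52 of 54 had a single spot.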
